A study of Mus musculus with 5 samples.

Results

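The urea cycle and amino acid catabolism genes were read on 5 one-colour Agilent arrays of mouse cell lines, as a list of 38 enzymes chosen by name. Of these, 37 had at least 1 probe, among 28770 genes with a probe on the array; Amt, a subunit of the glycine cleavage system, had none. The 37 genes were covered by 46 probes, and 7 genes had several. A gene was tested if some cell type had its probe well above background on all of that type's arrays, which held for 28 of the 37, among 19303 genes tested. Each gene is given by its brightest probe that met this rule, and the 9 untested genes by their brightest probe.

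The induced hepatic progenitor cells (iHPC) were made from the neural progenitor line NSBAg2 by infection with pMXs retroviruses, which carry no drug-selection marker, for 9 transcription factors (iHPC 9F) or 10 (iHPC 10F). NSBAg2 was derived from the embryonic stem cell line BAg73C2, in which beta-geo, a fused reporter and G418 resistance gene, is knocked into Afp; both iHPC lines therefore carry the allele. G418 was added 3 weeks after infection and kept for 1 week, so that cells transcribing Afp were selected. The hepatic progenitor cells (HPC) were 2 lines from fetal liver (stage E13.5, in days of embryonic development), HB1 from C57BL6J mice and HNG2 from STOCK Tg(Nanog-GFP, Puro)1 Yam mice. The neural progenitor cells (NPC) were NSBAg2 itself, on 1 array with no replicate. No label describes repeat cultures, so the p-values rest on how far HB1 lay from HNG2 and iHPC 9F from 10F, which may be technical in part. Levels below are on the log2 scale, as the signal over its own array's 75th percentile, and a level is not set against that of another gene, since probes differ in brightness.

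In the liver, the urea cycle turns ammonia released from amino acids into urea: its mitochondrial steps make citrulline, and its cytosolic steps pass through argininosuccinate to arginine, which arginase cleaves. The carbon skeletons of the amino acids are broken down by separate routes, many of which run almost wholly in hepatocytes, and inherited loss of single enzymes of these routes causes hyperammonaemia, tyrosinaemia, alkaptonuria, homocystinuria or primary hyperoxaluria in humans. Several of these genes are low in the fetal liver and come on around birth.

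The labelled cell types were read against marker genes. Of 11 hepatoblast markers, 10 and 11 were well above background in iHPC 9F and 10F, 10 in each HPC line and 5 in NPC, where Afp, Krt8, Krt19, Hnf4a, Prox1 and Ttr were not. The iHPC were selected on Afp transcription, so its detection in them adds no support. Levels went both ways: Foxa2 was at 0.07 and -0.36 in iHPC, 4.92 and 4.56 in HPC and 2.99 in NPC. Gpc3 was at 0.36 and -1.01 in iHPC, -8.06 and -6.42 in HPC and -4.69 in NPC. Of 11 mature hepatocyte markers with a probe, 6 were well above background in each iHPC line, 7 in HB1, 5 in HNG2 and 2 in NPC, and the cytochrome P450 genes Cyp2e1, Cyp2f2, Cyp7a1 and Cyp8b1 were so on no array. Of 8 neural progenitor markers, 6 were well above background in each iHPC line, 5 in HB1, 6 in HNG2 and 7 in NPC; Sox2 was not in either HPC line. Of 8 mesenchymal markers, 5 were well above background in each iHPC line, 3 in HB1, 6 in HNG2 and 7 in NPC, and their summed level in log2 was 3.69 and 3.74 in iHPC, 3.82 and 4.23 in HPC, and 7.65 in NPC. Of 7 blood markers, 4 were well above background in each iHPC line, 3 in each HPC line and 2 in NPC, with summed levels of 0.81 and 0.97 in iHPC, -1.13 and -1.60 in HPC, and -1.33 in NPC; Gata1 and Spi1 were well above background on no array, while the macrophage receptor gene Csf1r was at 0.25 and 0.46 in iHPC, -2.52 and -4.74 in HPC and -5.49 in NPC, and the leukocyte gene Ptprc was well above background in iHPC alone, at -3.29 and -2.83. Of 5 kidney proximal tubule markers, 3 were well above background in each iHPC line, 3 in HB1, 2 in HNG2 and 3 in NPC, with summed levels of 2.90 and 2.84 in iHPC, 1.70 and -0.18 in HPC, and -0.68 in NPC. Summed levels of the neural progenitor markers were 2.92 and 3.11 in iHPC, 0.97 and 1.73 in HPC and 2.70 in NPC, and those of the mature hepatocyte markers 6.86 and 7.13 in iHPC, 6.23 and 4.23 in HPC and -2.79 in NPC. Of 4 endothelial markers, 1 was well above background in each iHPC line, 2 in HB1, 0 in HNG2 and 1 in NPC, with sums of -3.31 and -2.77 in iHPC, -3.85 and -6.07 in HPC, and -4.39 in NPC. Of 6 intestinal epithelium markers, 5 and 4 were well above background in iHPC 9F and 10F, 4 and 5 in HB1 and HNG2, and 3 in NPC, with sums of 6.08 and 6.01 in iHPC, 7.58 and 6.98 in HPC, and -0.82 in NPC. The sums of the blood, kidney, neural progenitor, mature hepatocyte and endothelial markers were thus highest in iHPC, as were Cps1, Arg2, Hgd, Cbs and Ftcd below. Hepatoblast markers summed to 8.38 and 8.40 in iHPC, 9.66 and 9.41 in HPC and 4.33 in NPC. Cholangiocyte markers summed to 8.05 and 7.74 in iHPC, 7.46 and 8.11 in HPC and 8.49 in NPC. The hepatoblast, mature hepatocyte, intestinal and kidney sums were lowest in NPC, as were Gldc and Gls2. The mesenchymal, cholangiocyte, astrocyte and neuron sums were highest there. Neuron markers summed to 0.07 and 0.01 in iHPC, -0.65 and 0.26 in HPC and 1.12 in NPC. A sum mostly follows its brightest probe. Among the cholangiocyte markers in NPC, Spp1 alone was at 8.48, beside the sum of 8.49, and Krt7 was not well above background. The part of these cell types in the results was not tested. In such bulk samples, fewer cells of a type and less RNA per cell cannot be told apart.

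The arrays had 58.9% to 65.6% of their 43379 non-control spots well above background, and none was saturated. The HPC arrays were scanned on 2 separate days and the iHPC and NPC arrays together on another day. No HPC array shared a slide with an iHPC or NPC array. The HPC lines came from the mice named above, and iHPC and NPC from the line BAg73C2. Scan day, slide, origin of the line and cell type therefore cannot be told apart in any comparison with HPC. The tests come from 1 limma fit of the 5 arrays with 2 residual degrees of freedom and Benjamini-Hochberg adjustment over all genes tested, called at an adjusted p under 0.05. Where a group was not well above background, the fold is a bound, written "at least", taken against the lowest signal well above background on each array or the probe's own signal, whichever was higher.

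**Figure D1:**
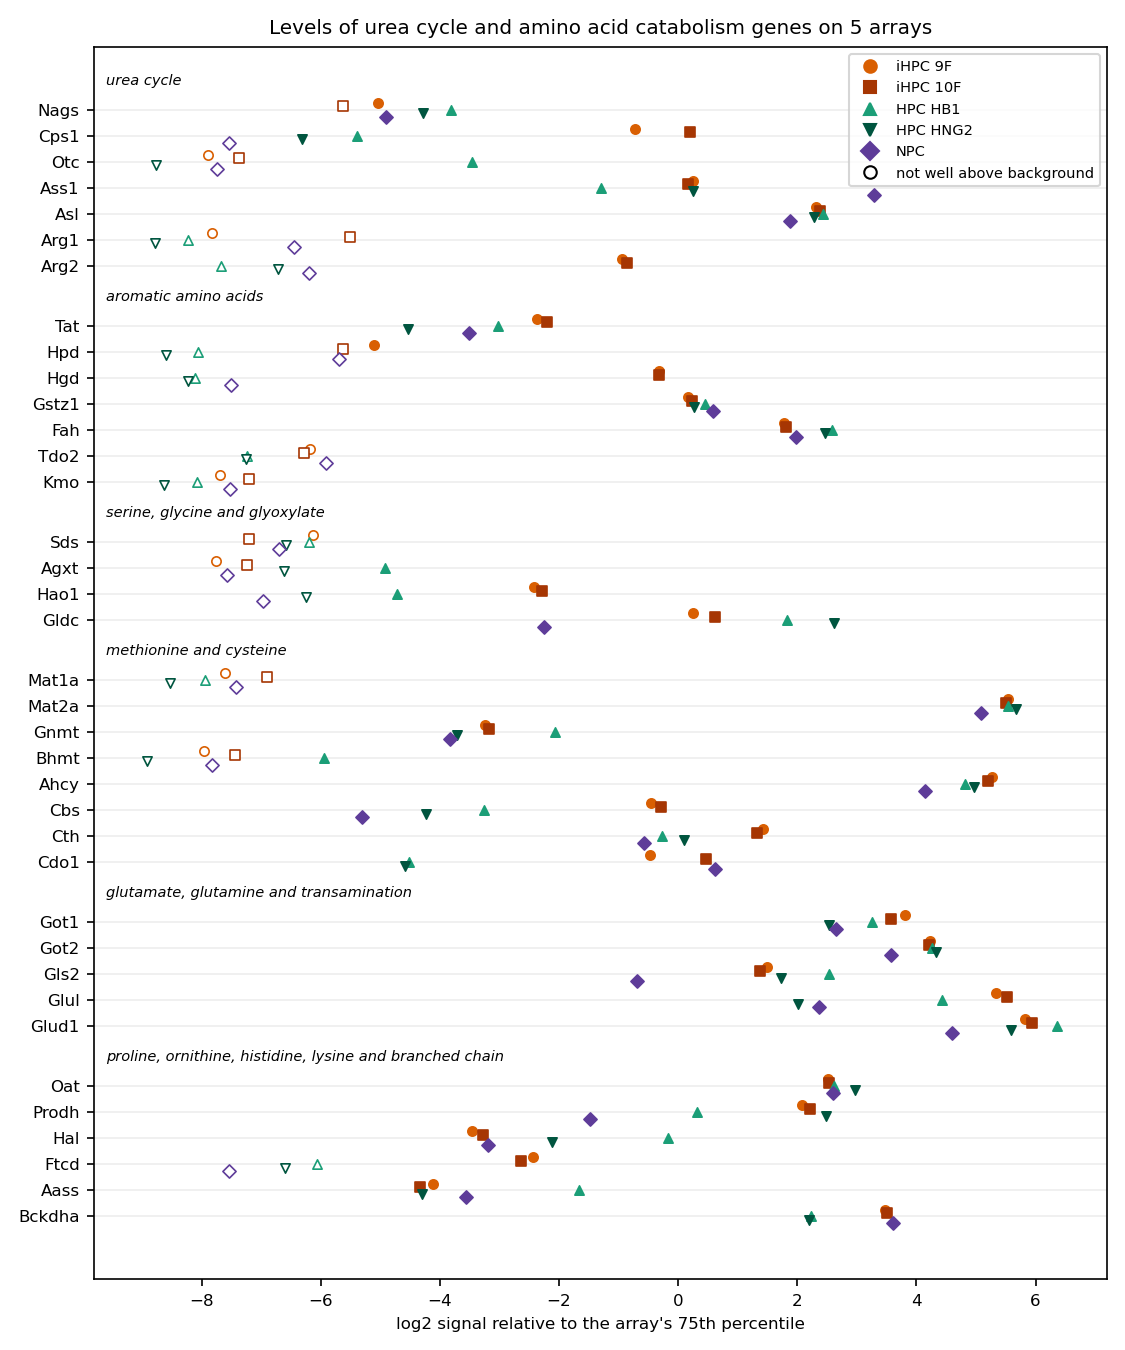
Each row is 1 of the 37 genes with a probe, grouped by pathway, and each symbol is its log2 level on 1 array relative to that array's 75th percentile; open symbols were not well above background. Cps1, Arg2, Hgd, Hao1, Cbs and Ftcd lie to the right in both iHPC lines, and Cdo1 lies to the right in iHPC and NPC.

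Set against the neural line they came from, iHPC had 5 of the 28 tested genes (17.9%) higher and 0 lower: Cps1, Arg2, Hgd, Cbs and Ftcd. Of all genes tested, 5.63% were called, 2.79% higher and 2.84% lower. Set against HPC, iHPC had 6 of the 28 (21.4%) higher and 0 lower, namely Cps1, Arg2, Hgd, Cbs, Ftcd and Cdo1, where 5.41% of all genes were called, 3.54% higher and 1.88% lower. Between HPC and NPC, Gldc and Gls2 were called higher in HPC and Cdo1 and Bckdha lower; these 4 of 28 (14.3%) are a share close to the 15.6% of all genes called, 6.68% higher and 8.96% lower. The highest mean of a tested gene lay in iHPC for 12 genes, in HPC for 12 and in NPC for 4 (Ass1, Gstz1, Cdo1 and Bckdha). This split was not counted over all genes. The comparisons share arrays, so they are not separate observations, and a gene that entered the tests through the group where it is high had to differ. Among the called genes Arg2, Hgd and Ftcd entered through iHPC alone, as did the uncalled Hao1. Their p-values in iHPC therefore add no support of their own. The unadjusted p was under 0.05 for 13, 13 and 10 of the 28 genes in iHPC against NPC, iHPC against HPC and HPC against NPC. Over all 19303 genes tested it was so for 4717, 5329 and 7028. The median difference of the 28 tested genes was 1.06 in iHPC minus NPC, 0.54 in iHPC minus HPC and 0.65 in HPC minus NPC, beside 0.03, 0.05 and -0.03 over all genes tested. Over all 37 genes with a probe these medians were 0.44, 0.73 and 0.52, beside 0.08, 0.27 and -0.31 over all 28770 genes. Leaving out an array changed the calls. Without either iHPC array, limma called 0 of the 28 genes in any comparison: without iHPC 9F and without iHPC 10F, the lowest adjusted p was 0.235 and 0.237 in iHPC against NPC, 0.192 and 0.204 in iHPC against HPC, and 0.0695 both times in HPC against NPC, with 9 and 9, 7 and 8, and 4 and 4 genes at an unadjusted p under 0.05. Without HB1 or without HNG2, HPC is 1 array and limma takes the spread from the iHPC pair alone. More of the 28 genes were then called in every comparison, and so were more of all genes tested. The size of the differences of dim genes changed under normexp background correction, which was run with an offset of 50 added to the signal. Correction and offset were changed together, so their parts cannot be told apart. Each fold and bound given below holds for the processed signal. With normexp and this offset, the log2 difference in iHPC minus NPC was 3.15 for Cps1, 2.53 for Arg2, 3.101 for Hgd, 2.77 for Cbs and 1.47 for Ftcd. In iHPC minus HPC it was 3.42 for Cps1, 3.25 for Arg2, 3.65 for Hgd, 2.60 for Cbs, 1.73 for Ftcd and 3.36 for Cdo1, and in HPC minus NPC -3.94 for Cdo1. All of these calls were kept under normexp, at sizes below the folds and bounds of the processed signal.

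**Figure D2:**
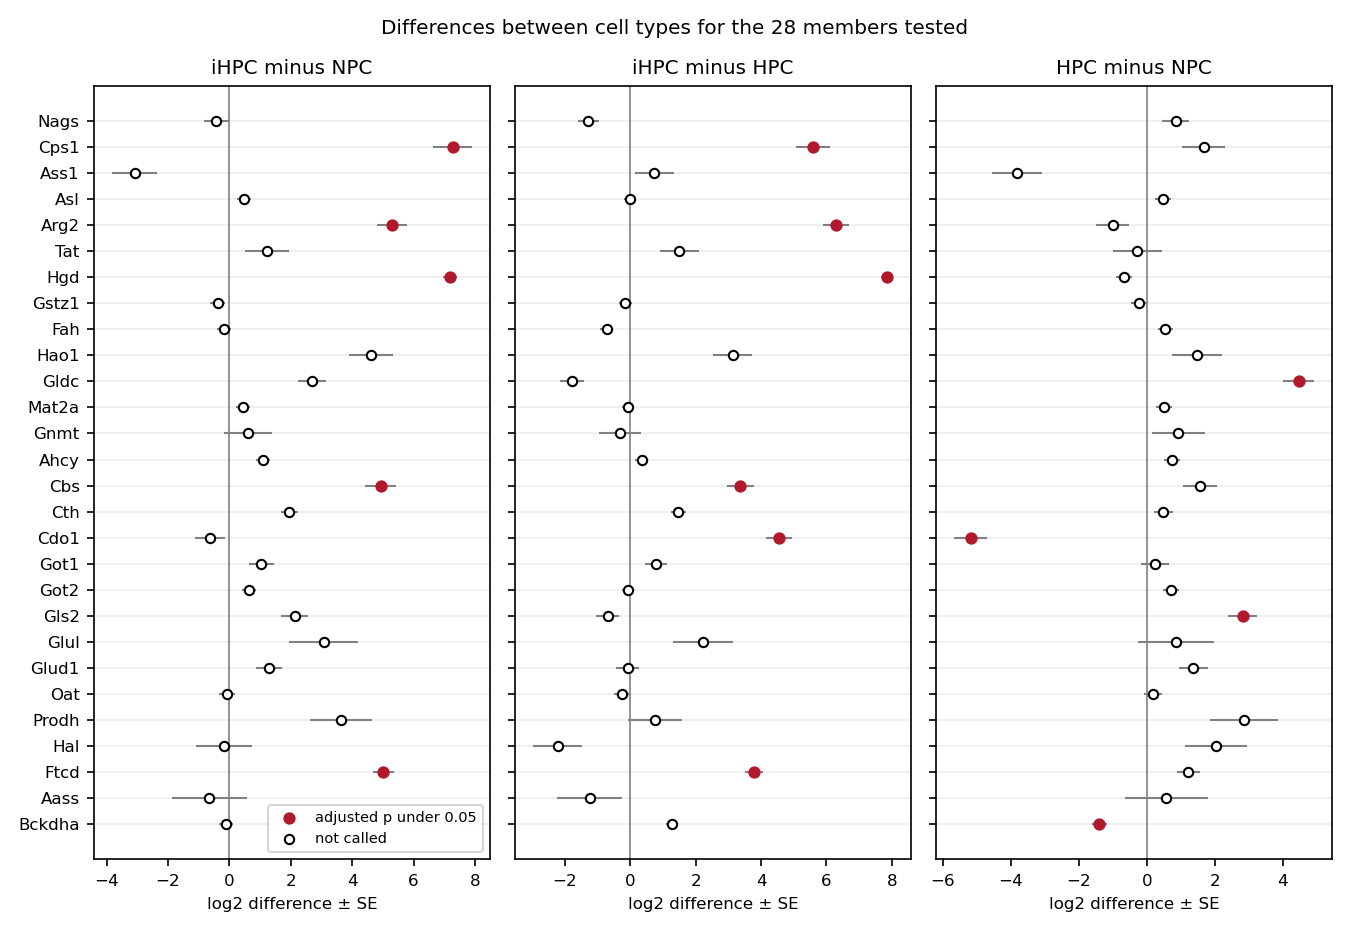
For the 28 tested genes, the log2 difference between cell types is shown with its standard error, in 1 panel per comparison, and filled points have an adjusted p under 0.05. The filled points are 5 in iHPC minus NPC, 6 in iHPC minus HPC and 4 in HPC minus NPC.

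Promoter sequence from RefSeq (GRCm38.p6) is shown for Hgd, Ftcd and Cbs, which were called higher in iHPC against both other cell types; none is printed for Cps1 and Arg2. Each runs 5′ to 3′ on the gene's strand, 250 bases before to 50 after the start, with motif matches in capitals. Hgd lies at chr16:37579903-37580202 (+), Ftcd at chr10:76575398-76575697 (+) and Cbs at chr17:31637156-31637455 (-).
Hgd: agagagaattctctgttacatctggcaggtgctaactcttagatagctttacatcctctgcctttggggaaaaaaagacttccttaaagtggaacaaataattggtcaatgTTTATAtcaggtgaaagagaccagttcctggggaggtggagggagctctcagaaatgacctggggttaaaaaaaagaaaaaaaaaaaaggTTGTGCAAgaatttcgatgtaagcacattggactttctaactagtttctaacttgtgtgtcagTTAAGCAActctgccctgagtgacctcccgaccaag
Ftcd: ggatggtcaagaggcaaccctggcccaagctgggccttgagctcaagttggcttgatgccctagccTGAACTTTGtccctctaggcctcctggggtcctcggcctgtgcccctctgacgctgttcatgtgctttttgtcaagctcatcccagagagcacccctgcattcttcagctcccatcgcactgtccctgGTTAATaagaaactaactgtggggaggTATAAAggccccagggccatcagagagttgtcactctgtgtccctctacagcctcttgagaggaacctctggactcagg
Cbs: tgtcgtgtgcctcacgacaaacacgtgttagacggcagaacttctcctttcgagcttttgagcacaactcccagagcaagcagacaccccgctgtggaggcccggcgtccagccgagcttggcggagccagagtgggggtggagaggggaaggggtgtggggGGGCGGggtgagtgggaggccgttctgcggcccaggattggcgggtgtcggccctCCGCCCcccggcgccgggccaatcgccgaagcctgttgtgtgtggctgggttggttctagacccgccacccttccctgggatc
Of all 32851 promoters of this length in the table, searched on both strands, 10.8% held the C/EBP letters TTNNGCAA and 1.41% the HNF4 letters CAAAGTNCA. The HNF1 letters searched were GTTAAT, the core of that factor's site, held by 7.10% of the promoters. For FOXA factors the letters were TGTTTAC, which 3.65% of the promoters held. The TATA box was read as TATAAA and was held by 13.6%. The GC box was read as GGGCGG and was held by 35.7%. Hgd held 2 C/EBP matches and a TATA box on the reverse strand, Ftcd an HNF4 match on the reverse strand, an HNF1 match and a TATA box, and Cbs 2 GC boxes, 1 on each strand; no matches overlapped in these promoters. Of the 29 listed genes with a promoter in the table, 4 held the C/EBP letters, 2 the HNF4, 2 the HNF1, 0 the FOXA, 6 the TATA and 14 the GC box letters. These are letter matches and not measured sites.

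In the urea cycle, iHPC had Cps1 and Arg2 at high levels, while Otc and Arg1 were not well above background in them. Cps1, the mitochondrial carbamoyl phosphate synthetase that starts the cycle, had levels of -0.72 and 0.20 in iHPC 9F and 10F, against -5.40 and -6.32 in HB1 and HNG2 and -7.53 in NPC, where it was not well above background. Both iHPC arrays lay above every other array. Cps1 was at least 40.3-fold higher in iHPC than in NPC (adjusted p = 0.0304) and 48.4-fold higher than in HPC (log2 difference 5.60 ± 0.52 SE, adjusted p = 0.0295), whereas HPC and NPC gave an adjusted p of 0.157. The HPC levels lay near the lowest signal well above background, at -5.99 on the HB1 array and -6.62 on the HNG2 array.

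Arg2, the mitochondrial arginase found mainly outside the liver, had levels of -0.95 and -0.86 in iHPC 9F and 10F. It was at -7.67 and -6.71 in the HPC lines and -6.19 in NPC, and none of these 3 arrays had it well above background. The iHPC arrays stood apart, at least 25.8-fold above NPC (adjusted p = 0.0309) and at least 42.3-fold above HPC (adjusted p = 0.0207). Arg1, the cytosolic arginase of the hepatocyte, had -7.82 and -5.51 in iHPC, -8.22 and -8.78 in HPC and -6.45 in NPC, and was not well above background on any array. The arginase measured in iHPC was thus the mitochondrial isoenzyme.

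Otc, which joins carbamoyl phosphate to ornithine, was well above background on 1 array, HB1. Its brightest probe had -7.89 and -7.37 in iHPC, -3.45 in HB1, -8.76 in HNG2 and -7.74 in NPC, so that HB1 was at least 9.00-fold above HNG2, with no replicate of either line. A second Otc probe was also well above background in HB1 alone, at -5.29, and the third on no array. Otc was not tested for this reason. Nags, which makes the activator of Cps1, had -5.04 and -5.62 in iHPC, -3.82 and -4.28 in HPC and -4.90 in NPC, and was well above background on 4 arrays, not in iHPC 10F. The value in iHPC 10F is therefore only a bound, and Nags was not called in iHPC against HPC (adjusted p = 0.121). A second Nags probe was well above background in HB1 alone, at -5.26. It had -7.66 and -7.15 in iHPC, -6.44 in HNG2 and -7.47 in NPC, so detection outside HB1 rests on 1 probe.

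The cytosolic enzymes before arginase were measured on all arrays. Ass1, which condenses citrulline with aspartate, had 0.24 and 0.16 in iHPC, -1.30 in HB1, 0.25 in HNG2 and 3.28 in NPC. NPC was thus the highest array and the differences of -3.08 in iHPC minus NPC and -3.81 in HPC minus NPC missed the threshold (adjusted p = 0.118 and 0.0521). Asl, which splits argininosuccinate into arginine and fumarate, had 2.31 and 2.38 in iHPC, 2.43 and 2.28 in HPC and 1.87 in NPC, a range of less than 1 on the log2 scale, with no call.

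**Figure D3:**
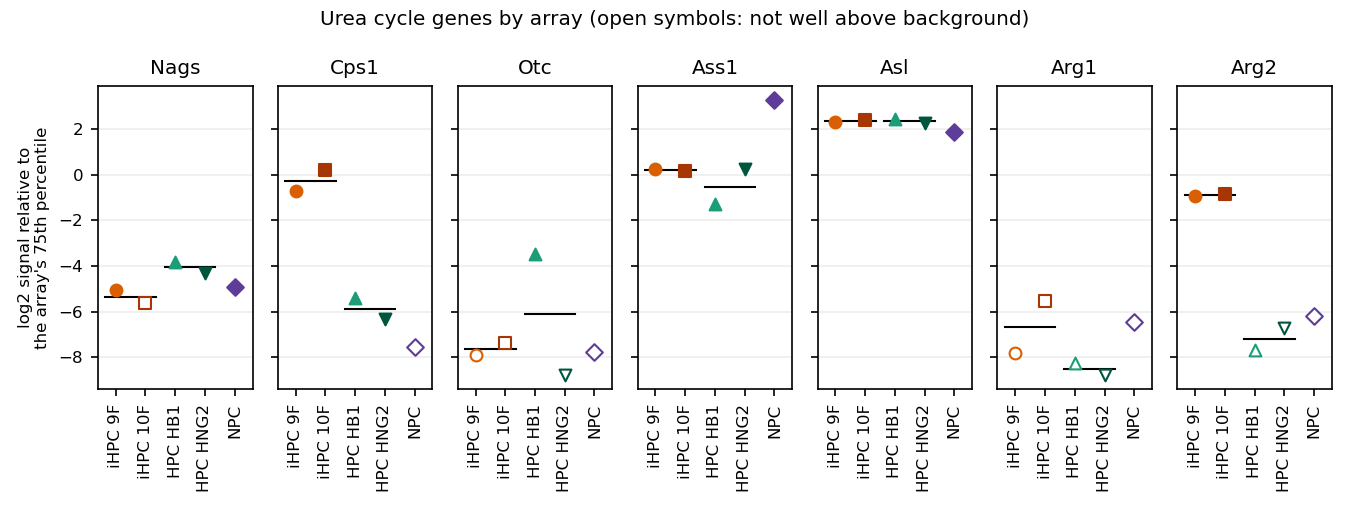
The level of each urea cycle gene and of Arg1 and Arg2 is shown on each of the 5 arrays, with horizontal bars for group means and open symbols where it was not well above background. Cps1 and Arg2 are high in both iHPC lines, Otc is above background in HB1 alone, and Ass1 is highest in NPC.

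Tyrosine breakdown runs from transamination by Tat, through Hpd and Hgd, to the isomerase Gstz1 and the final enzyme Fah. Hgd, homogentisate dioxygenase, was the called gene of this route: its level was -0.32 in both iHPC 9F and 10F, against -8.11 and -8.23 in the HPC lines and -7.51 in NPC, where no array had it well above background. Hgd was at least 38.6-fold higher in iHPC than in NPC (adjusted p = 0.026) and at least 63.3-fold higher than in HPC (adjusted p = 0.0159). Tat had -2.37 and -2.19 in iHPC, -3.03 and -4.54 in HPC and -3.51 in NPC; both iHPC arrays were above the others, but no comparison passed the test, with adjusted p from 0.215 to 0.814. Gstz1 and Fah were well above background on every array, with Gstz1 between 0.16 and 0.59 and Fah between 1.78 and 2.58, and neither was called. Hpd was well above background in iHPC 9F alone, at -5.11, against -5.63 in iHPC 10F, -8.06 and -8.59 in HPC and -5.69 in NPC. The tryptophan enzymes Tdo2, which opens the indole ring, and Kmo, which hydroxylates kynurenine, were well above background on no array.

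Of the serine, glycine and glyoxylate genes, Gldc, the decarboxylase of the glycine cleavage system, was called in 1 comparison. Its levels were 0.26 and 0.61 in iHPC, 1.82 and 2.61 in HPC and -2.26 in NPC, so that the 3 cell types did not overlap and HPC stood highest. Gldc was 22.2-fold higher in HPC than in NPC (log2 difference 4.47 ± 0.45 SE, adjusted p = 0.0191), and the differences of 2.69 in iHPC minus NPC and -1.78 in iHPC minus HPC did not pass the test (adjusted p = 0.0664 and 0.0895). Hao1, the glycolate oxidase that makes glyoxylate, had -2.42 and -2.28 in iHPC, -4.72 in HB1, -6.25 in HNG2 and -6.96 in NPC, and was well above background on 3 arrays, not in HNG2 or NPC. Hao1 was at least 9.45-fold above NPC in iHPC, which did not pass the test (adjusted p = 0.0607). Against HPC, where 1 of 2 arrays measured it, no fold is given and the test was not passed either (adjusted p = 0.08). Agxt, the peroxisomal aminotransferase that removes glyoxylate, was well above background in HB1 alone, at -4.93, and at -7.76 and -7.24 in iHPC, -6.62 in HNG2 and -7.57 in NPC. Sds, serine dehydratase, was not well above background on any array.

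In the methionine and cysteine route, Mat2a, the methionine adenosyltransferase of proliferating and non-hepatic cells, was measured on every array, at 5.55 and 5.51 in iHPC, 5.53 and 5.67 in HPC and 5.09 in NPC. Mat1a, the isoenzyme of the adult hepatocyte, was not well above background on any array, with its highest value at -6.91 in iHPC 10F. Among the arginases such a contrast held in iHPC alone, since HPC and NPC had neither Arg1 nor Arg2 well above background. Gnmt, which uses S-adenosylmethionine to methylate glycine, lay between -3.82 and -2.07 and was not called. Ahcy, which releases homocysteine, was at 5.27 and 5.20 in iHPC, 4.81 and 4.96 in HPC and 4.15 in NPC, with no call, and its 3 probes gave different differences between iHPC and HPC (0.34, -0.99 and -0.0014). Bhmt, which remethylates homocysteine with betaine, was well above background in HB1 alone, at -5.94.

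Cbs, which opens the transsulfuration route by joining homocysteine and serine, had levels of -0.46 and -0.29 in iHPC, -3.26 and -4.23 in HPC and -5.30 in NPC, and was well above background on all arrays. The cell types did not overlap and iHPC was highest. Cbs was 30.4-fold higher in iHPC than in NPC (log2 difference 4.93 ± 0.50 SE, adjusted p = 0.0335) and 10.3-fold higher than in HPC (3.37 ± 0.41, adjusted p = 0.0417). Its NPC level lay near the lowest signal well above background on that array, -5.59. Cth, which forms cysteine in the next step, was at 1.43 and 1.33 in iHPC, -0.27 and 0.09 in HPC and -0.58 in NPC, with both iHPC arrays above the rest, but its differences of 1.96 from NPC and 1.47 from HPC stood just outside the threshold (adjusted p = 0.0521 and 0.0608).

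Cdo1, the cysteine dioxygenase that commits cysteine to sulfinate and taurine, differed in HPC rather than in iHPC. Its levels were -0.48 and 0.47 in iHPC, -4.52 and -4.59 in HPC and 0.63 in NPC. Both HPC arrays lay far below the other 3. Cdo1 was 23.4-fold higher in iHPC than in HPC (log2 difference 4.55 ± 0.39 SE, adjusted p = 0.0272) and fell by 5.18 ± 0.48 on the log2 scale in HPC relative to NPC (adjusted p = 0.0172). Between iHPC and NPC its difference was -0.63 (adjusted p = 0.513).

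The glutamate, glutamine and aminotransferase genes, which feed nitrogen into and out of the cycle, were all measured on every array. Gls2, the liver-type glutaminase, had 1.497 and 1.37 in iHPC, 2.54 and 1.72 in HPC and -0.69 in NPC, the only array below 0. Gls2 was 7.08-fold higher in HPC than in NPC (log2 difference 2.82 ± 0.44 SE, adjusted p = 0.0362), and in iHPC the difference of 2.13 from NPC did not pass the test (adjusted p = 0.0911). Glud1, which releases ammonia from glutamate, and Got1 and Got2, the cytosolic and mitochondrial aspartate aminotransferases, had ranges of 4.596 to 6.36, 2.54 to 3.81 and 3.58 to 4.34. NPC was the lowest array for Glud1 and Got2, and HNG2 for Got1, and none was called.

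Glul, glutamine synthetase, had 5.34 and 5.52 in iHPC, 4.43 in HB1, 2.01 in HNG2 and 2.37 in NPC. The HPC lines were 2.42 apart on the log2 scale and no comparison passed the test, with adjusted p from 0.219 to 0.624. A second Glul probe gave -2.38 and -2.27 in iHPC, -2.96 in HB1, -2.89 in HNG2 and -5.35 in NPC, so that the HPC lines were -0.07 apart there, and the split between HB1 and HNG2 rests on 1 probe. Glul is also an astrocyte enzyme; the summed level of 6 astrocyte markers was 3.74 and 3.72 in iHPC, 2.47 in HB1, -0.06 in HNG2 and 4.67 in NPC, with Gfap not well above background on any array, and the part of such cells was not tested.

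Among the proline, ornithine, histidine, lysine and branched chain genes, Ftcd, the formiminotransferase that ends histidine breakdown, was called. Its levels were -2.44 and -2.64 in iHPC, -6.06 and -6.59 in HPC and -7.55 in NPC, and it was well above background in iHPC alone. Ftcd was at least 8.28-fold higher in iHPC than in NPC (adjusted p = 0.0286) and at least 13.4-fold higher than in HPC (adjusted p = 0.0231). Hal, the lyase that opens histidine breakdown, had -3.45 and -3.27 in iHPC, -0.16 in HB1, -2.11 in HNG2 and -3.18 in NPC, with both HPC arrays highest and an adjusted p of 0.174 against iHPC. Histidine's entry enzyme and its last enzyme thus had their highest values in different cell types.

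Bckdha, a subunit of the branched chain ketoacid dehydrogenase, was lower in HPC, with levels of 3.47 and 3.51 in iHPC, 2.23 and 2.20 in HPC and 3.61 in NPC. Bckdha fell by 1.39 ± 0.23 on the log2 scale in HPC relative to NPC (adjusted p = 0.0393), and its difference of 1.28 between iHPC and HPC stood just outside the threshold (adjusted p = 0.0541). Prodh, proline dehydrogenase, had 2.08 and 2.22 in iHPC, 0.31 in HB1, 2.48 in HNG2 and -1.47 in NPC. NPC was the lowest array, but HB1 and HNG2 lay 2.16 apart and no comparison was called. Aass, which starts lysine breakdown, had -4.11 and -4.33 in iHPC, -1.66 in HB1, -4.30 in HNG2 and -3.56 in NPC, with HB1 alone high. Oat, ornithine aminotransferase, was between 2.52 and 2.97 on all 5 arrays.

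Within the pairs, HB1 and HNG2 differed by 4-fold or more in 3 of the 28 genes, Aass at 2.63, Glul at 2.42 and Prodh at -2.16 in HB1 minus HNG2, beside 8.60% of all genes tested, a share close to that of the list. Hal, at 1.95, stood just under that size. Among the genes that were not tested, Otc, Agxt and Bhmt were at least 9.00-fold, 3.22-fold and 1.60-fold higher in HB1 than in HNG2. Between iHPC 10F and 9F, 0 of the 28 genes differed by 4-fold, beside 0.730% of all genes, and the largest differences were 0.94 for Cdo1 and 0.92 for Cps1. The median absolute difference of the 28 genes was 0.75 in HB1 minus HNG2 and 0.13 in iHPC 10F minus 9F, beside 0.53 and 0.15 over all genes. Each line was 1 array, so these differences have no test. In the HPC pair the strain, the line, the slide and the scan day cannot be told apart.

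**Figure D4:**
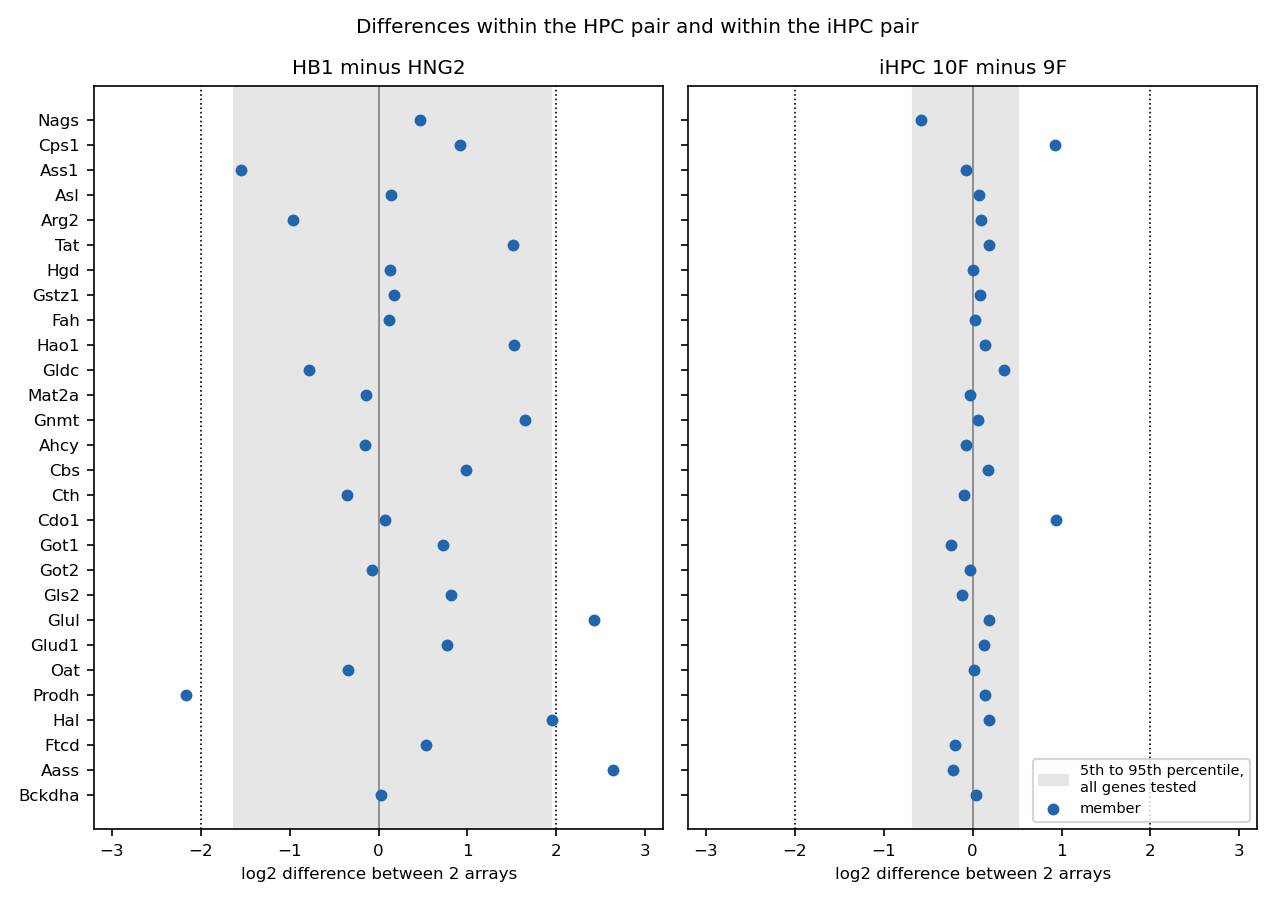
For each tested gene, the log2 difference HB1 minus HNG2 (left) and iHPC 10F minus 9F (right) is plotted, with dotted lines at 4-fold and a grey band from the 5th to the 95th percentile of all genes tested. Aass, Glul and Prodh lie past the lines in HB1 minus HNG2, and no gene does in iHPC 10F minus 9F.

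The other genes of these pathways were read from a list of 84, of which 82 had a probe and 73 were tested. Of the 73, 8.22% were called in iHPC against NPC, 2.74% in iHPC against HPC and 21.9% in HPC against NPC. The shares of all genes tested were 5.63%, 5.41% and 15.6%. In iHPC against NPC, 6 of the 73 were higher and 0 lower: Aadat, which transaminates aminoadipate and kynurenine, by at least 11.2-fold (adjusted p = 0.0304), Kyat1, a kynurenine aminotransferase, by 3.80 on the log2 scale (adjusted p = 0.0478), Ddah1, which degrades dimethylarginine, by 3.79 (adjusted p = 0.0464), Pcbd1, which recycles a pterin cofactor, by 3.62 (adjusted p = 0.0286), Prodh2, hydroxyproline dehydrogenase, by 3.60 (adjusted p = 0.0376), and Gatm, the first enzyme of creatine synthesis, by at least 2.18-fold (adjusted p = 0.0441). In iHPC against HPC, 2 were higher and 0 lower. Kyat1 had 3.57 and 3.79 in iHPC, 0.92 and -0.07 in HPC and -0.12 in NPC, with both iHPC arrays highest (iHPC minus HPC 3.26, adjusted p = 0.0454), and Chdh, choline dehydrogenase, was at least 3.57-fold above HPC (adjusted p = 0.0456). In HPC against NPC, 12 were higher and 4 lower. By the fitted difference, the largest of these were Sdsl, a serine dehydratase-like enzyme, at least 60.3-fold higher (adjusted p = 0.0213), Pcbd1, 4.18 higher on the log2 scale (adjusted p = 0.0113), Prodh2, 3.97 higher (adjusted p = 0.0193), and Aadat, at least 7.88-fold higher (adjusted p = 0.018). Ddah1, measured in both cell types, was 8.87-fold higher (adjusted p = 0.0375), so that its order relative to Aadat is not settled. Dhtkd1, of lysine breakdown, was at least 19.1-fold lower in HPC (adjusted p = 0.0226), and Pycr1, Sardh and Csad had differences of -2.58, -2.27 and -2.04. Neither HPC line had Chdh or Dhtkd1 well above background, so HPC did not bring these genes into the tests. Their p-values in these comparisons with HPC therefore add no support of their own.

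Fitted with scan day as a block, which compares iHPC and NPC within their shared day and leaves the spread of the iHPC pair alone, 15 genes were higher in iHPC and 1, Ass1, was lower (adjusted p = 0.00576); of all genes 34.9% were called, 16.7% higher and 18.2% lower. Those 15 were the 5 called above and Tat, Hao1, Gldc, Ahcy, Cth, Got1, Gls2, Glul, Glud1 and Prodh. On the slide that iHPC 10F and NPC shared, the log2 difference between these arrays was 7.73 for Cps1, 5.34 for Arg2, 7.19 for Hgd, 5.02 for Cbs and 4.90 for Ftcd.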

How the data were processed

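RNA of 5 mouse lines (0.25 µg each) was measured with 1-colour Agilent arrays. The authors deposited intensity values per spot, which the scanner software, Agilent Feature Extraction 10.7.3.1 per the file headers, had background-subtracted and detrended, and the values in the series matrix were the same on 100% of spots. From these, log2 was taken and each array's 75th percentile subtracted. Spots that were controls or flagged as outliers were dropped, and repeated spots averaged per probe. Probes were named through RefSeq accessions of GRCm38.p6 (22940 probes), by the file's symbol found there (6658) or by the name the file gives (11551), possibly outdated. All arrays gave a value for 41149 of 41174 probes.

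Groups are the labelled cell types. A two-sided limma fit (version 3.58.1, R 4.3.3, eBayes) with Benjamini-Hochberg adjustment over 19303 genes gave the differences, and was tested on simulated data. Genes had a median SD of 0.37 between the HPC lines and 0.11 between the iHPC lines, a spread the single NPC array was taken to share. With 2 arrays against 2, an exact permutation p is at least 0.333. The number of arrays limits the precision. The alternatives were other scalings, background corrections, filters, probe summaries, models, blocks and left-out arrays.

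All 38 listed genes are accounted for; values on every array are given for urea cycle genes, called genes and genes that differ by 4-fold within a pair, and for some further genes chosen after their values were seen. The members, the other pathway genes and the marker lists were chosen with earlier results of these data known. Figures were drawn with matplotlib 3.10.9. A second neural line and embryonic stem cell arrays named in the study's design were not used here. Some genes of the marker and other pathway lists are not reported here by name.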

Additional observations from a re-analysis of the deposited data

How the results depend on the processing

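The number of arrays, 2, 2 and 1 per cell type, limits every call, and signals near background give only bounds. No paired analysis was possible because the labels carry no replicate numbers. Leaving out 1 array at a time moved the listed genes called between 0 and 16 in iHPC against NPC, 0 and 19 in iHPC against HPC, and 0 and 16 in HPC against NPC; the other pathway genes between 0 and 34, 0 and 36, and 0 and 45; and all genes between 0 and 6739, 0 and 6939, and 0 and 9739. The 0 counts came each time without an iHPC array, when limma takes the spread from the HPC pair alone; 2118 and 2116, 1895 and 1929, and 3881 and 3881 of all genes then had an unadjusted p under 0.05, and 11 and 13, 5 and 5, and 21 and 21 other pathway genes. For the listed genes in iHPC against NPC (5), normexp gave 8, an intensity trend 8, no filter on dim probes 3, probes well above background on all arrays 1, and the fits on only the groups compared and with scan day as a block 16 each; in iHPC against HPC (6), normexp gave 10 and all-array probes 3; in HPC against NPC (4), normexp gave 7, the trend 7, no filter 2 and only the groups compared 0 (4 at an unadjusted p under 0.05). For the other pathway genes these counts were, in iHPC against NPC (6), 10 with quantile normalization, 11 with normexp, 1 without filter, 12 with the trend and 34 with only the groups or the block; in iHPC against HPC (2), 4 with median centring, 8 with normexp, 0 without filter (21 unadjusted), 1 with all-array probes and 5 with the trend; and in HPC against NPC (16), 9 without filter and 0 with only the groups (21 unadjusted). Over all genes they were 241 without filter, 492 with all-array probes and 6739 with only the groups or the block in iHPC against NPC (1087); 2068 with normexp, 449 without filter and 612 with all-array probes in iHPC against HPC (1045); and 4677, 1632 and, with only the groups, 0 (3881 unadjusted) in HPC against NPC (3018). The all-array filter leaves Cps1, Arg2, Hgd and Ftcd out by its construction; for the rest the cause was not tested. Over all genes, the split into higher and lower calls was 683 and 362 in iHPC against HPC, but 687 and 623 with median centring and 719 and 557 with quantile normalization; in HPC against NPC it was 1289 and 1729, but 1761 and 1496 with median centring. Median centring moved the median of all genes to -0.19 in iHPC minus HPC and 0.26 in HPC minus NPC. Among called genes, left-out arrays aside, Cps1, Hgd and Ftcd kept their calls under every alternative with a value, as did Arg2 and Cdo1 in iHPC against HPC. Under normexp the sizes shrank, with 3.15 in place of 7.27 for Cps1 in iHPC minus NPC. Calls were lost without a filter for Arg2 (adjusted p = 0.0512) and Cbs (0.0536) against NPC, Cbs against HPC (0.0647), and Gls2 (0.0596) and Bckdha (0.0937) in HPC against NPC; Bckdha also with median centring (0.0875); and Gldc (0.0841), Cdo1 (0.0695), Gls2 (0.148) and Bckdha (0.259) with only HPC and NPC fitted. No called difference changed sign. Uncalled differences that did, over left-out arrays, were Ass1 (-0.0436 to 1.501), Asl (-0.0755 to 0.0656), Gnmt (-1.14 to 0.51), Glud1 (-0.47 to 0.30), Prodh (-0.33 to 1.84) and Aass (-2.55 to 0.0805) in iHPC minus HPC, and Tat (-1.03 to 0.48), Got1 (-0.11 to 0.61), Glul (-0.35 to 2.07) and Aass (-0.74 to 1.90) in HPC minus NPC. With quantile normalization, iHPC minus HPC turned to 0.0695 for Asl, 0.0445 for Mat2a, 0.0265 for Got2 and 0.0041 for Glud1, and with the mean of probes to -0.22 for Ahcy. In HPC minus NPC, normexp gave Nags -0.0478, Cps1 -0.27, Hao1 -0.24 and Ftcd -0.26, quantile normalization Tat 0.048 and Hgd 0.12, and median centring Tat 0.0101 and Gstz1 0.0538.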
